A study of Mus musculus with 6 samples.

Results

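The genes described here are 40 genes of the NRF2 axis and of the enzymes that remove oxidants, taken by gene symbol from a deposited table of 35618 genes. They cover the regulators NRF2 and KEAP1, glutathione, thioredoxin, peroxiredoxin, catalase, superoxide dismutase, NADPH supply and the metallothioneins. Each of the 40 symbols matched 1 row, and all 40 had enough counts to be tested. The members were listed by function, with earlier results of these data known, and the rule that picks them uses no measured value.

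NRF2, encoded by Nfe2l2, is a transcription factor that the adaptor protein KEAP1 normally sends for degradation. Oxidants and electrophiles modify KEAP1, and NRF2 then accumulates and switches on genes through antioxidant response elements, among them genes that make and recycle glutathione and thioredoxin and genes that supply NADPH, the reducing power both systems need. Doxorubicin cycles between redox forms in heart muscle and produces superoxide, which dismutases convert to hydrogen peroxide, and catalase, glutathione peroxidases and peroxiredoxins then remove the peroxide.

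RNA was sequenced from the hearts of mice aged 6 to 8 weeks, 3 days after an intraperitoneal dose of 20 mg/kg doxorubicin. The controls were 3 libraries from hearts of GSDMD (flox/flox) mice, in which the gasdermin D gene is flanked by recombination sites. The other 3 libraries came from hearts of GSDMD-CKO mice, in which the gene was knocked out in the myocardium. The labels used here do not name the promoter that drove the recombinase. All mice received doxorubicin and no untreated hearts were analysed here, so the values show a difference between genotypes and not a response to the drug. The 2 groups are called floxed and knockout below. The labels do not say that each library came from its own animal, so each p-value reflects library-to-library spread, which may be technical.

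The libraries held 17279147 to 18875902 counted reads, and 16591 genes were tested. Gsdmd averaged 7613 ± 811 CPM (counts per total, TMM-scaled; SD, n = 3) under the floxed label and 108 ± 29.7 CPM under the knockout label. The floxed mean was near that of the cardiomyocyte marker Tnnt2, 7015 ± 2023 CPM, and the reason for this level was not tested. All 8 cardiomyocyte markers examined were detected, with a summed level of 15507 to 22910 CPM in the floxed libraries, 20109 and 19935 CPM in knockout libraries 1 and 2 and 9453 CPM in knockout library 3. Of these sums, Myh6 alone gave 5703 CPM in knockout library 2, against 1442 to 1843 CPM in each other library. The libraries also differed in other ways. Mitochondrial genes took 18.1% of the counts in knockout library 1 and 5.48% to 11.2% in the other 5. Endothelial markers (6 of 6 detected) summed to 1637 to 1973 CPM in the floxed and 3913, 2009 and 791 CPM in the knockout libraries. Macrophage and monocyte markers (7 of 7 detected) summed to 2975 to 5980 CPM in the floxed libraries and to 1834, 5121 and 5031 CPM in knockout libraries 1, 2 and 3. Markers of T and NK cells (7 of 7 detected) summed to 53.3 to 120.4 CPM in the floxed and to 111.6, 572 and 557 CPM in the knockout libraries. In whole tissue, fewer cells of a type and less RNA per cell cannot be told apart.

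Antioxidant genes were mostly lower in the knockout hearts, while Nfe2l2 itself was level. Of the 40 members, 30 had negative and 10 positive log2 fold changes (knockout minus floxed), with a median of -0.29, against 46.2% negative and a median of 0.03 over all genes tested. None of the 40 passed edgeR's quasi-likelihood test at a Benjamini-Hochberg adjusted p under 0.05 over all genes, where 0.0121% of all genes passed (Gsdmd and 1 other gene), and the smallest adjusted p of a member was 0.529. An unadjusted p under 0.05 was reached by 4 members, all lower (Gss, Idh1, Gsta4 and Srxn1), against 2.65% of all genes lower, and by 0 members higher, against 4.37% of all genes higher. DESeq2 called 1 member, Idh1, where 1.47% of all genes were called. Without knockout library 1, edgeR called Gss as lower and Glrx as higher, where 2.92% of all genes were called.

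For 6 members, Cat, Gss, Gsta4, Idh1, Srxn1 and Taldo1, every knockout library lay below every floxed library. That is 15% of the members, against 5.98% of all genes. On the deposited FPKM Cat and Taldo1 overlapped between the genotypes and Gstm5 did not. No share of all genes was computed for FPKM, so no count of members is given for it. On CPM no member lay above in every knockout library, against 5.82% of all genes. As a set, the members' median level (log2 CPM relative to the floxed mean) was -0.06, 0.08 and 0.06 in floxed libraries 1, 2 and 3 and -0.25, -0.48 and -0.18 in knockout libraries 1, 2 and 3. All 3 knockout libraries were thus below the floxed libraries in this median, and the medians over all genes lay between 0.00 and 0.02 in all 6.

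**Figure D1:**
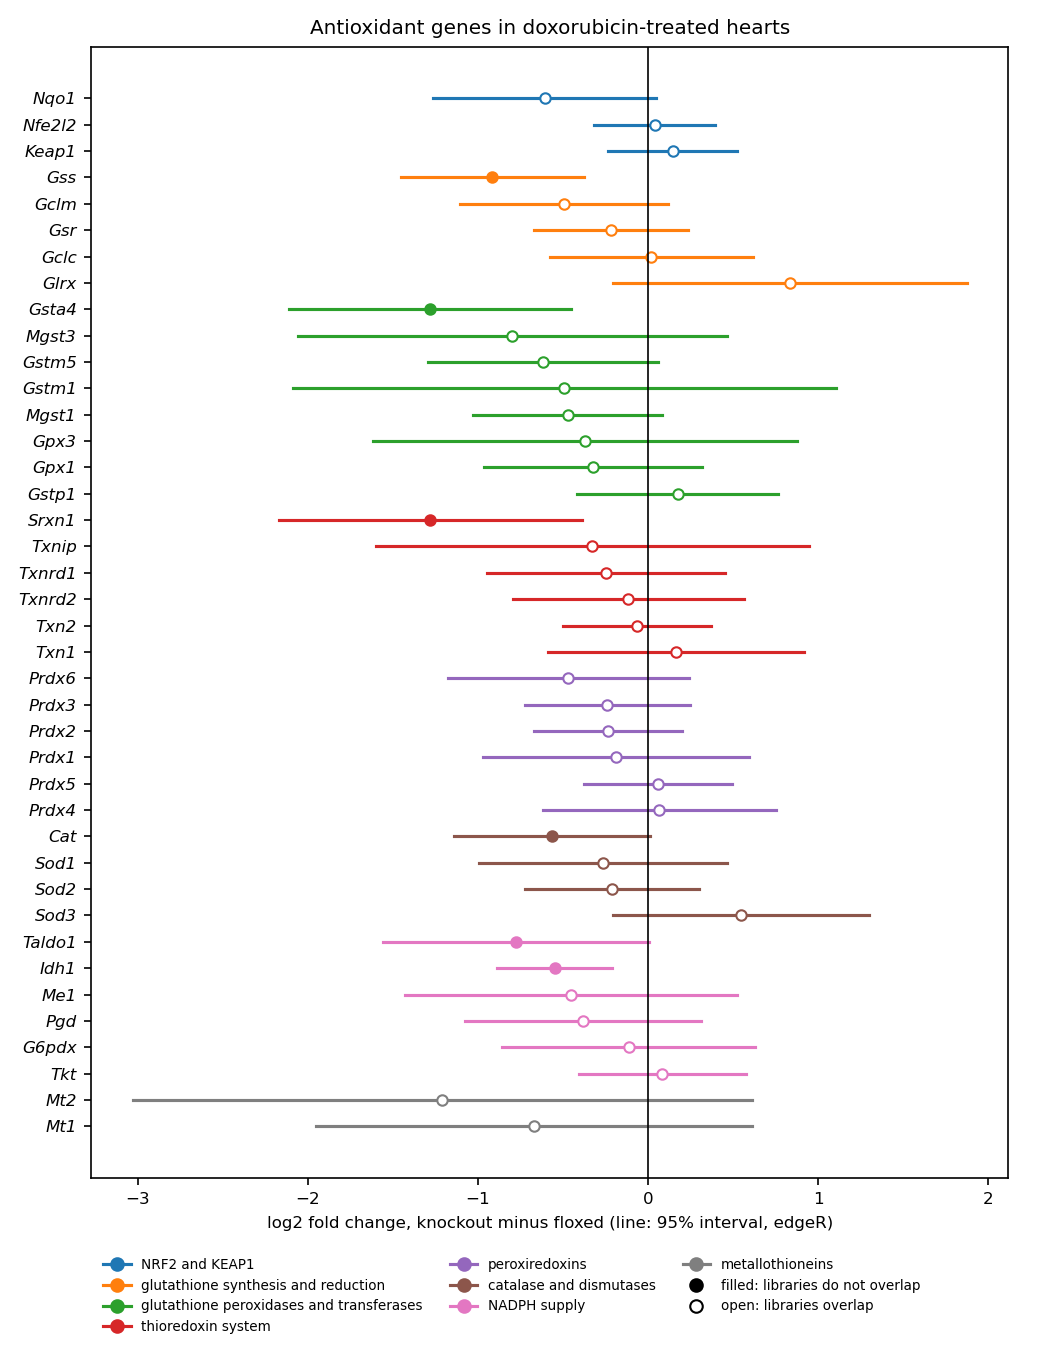
Log2 fold change (knockout minus floxed) of each of the 40 genes with its 95% interval from edgeR, grouped by role, with filled points where no knockout library reached the floxed range. Points lie mostly left of 0, and the intervals of 4 genes, Gss, Idh1, Gsta4 and Srxn1, exclude 0 before adjustment.

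The transcription factor and its inhibitor came first. Nfe2l2 (chromosome 2, 75675513 to 75704641, minus strand, GENCODE release M21 on GRCm38) measured 120.4, 112 and 108 CPM in floxed libraries 1, 2 and 3, against 117 CPM in each knockout library. The knockout values lay inside the floxed range, giving a log2 fold change of 0.04 (95% interval -0.32 to 0.40). Keap1 measured 66.6, 63.7 and 74.0 CPM in the floxed and 67.3, 85.0 and 73.9 CPM in the knockout libraries, with overlap and a log2 fold change of 0.15 (95% interval -0.23 to 0.53). Nqo1, the quinone reductase that is a standard readout of NRF2 activity, measured 36.6, 67.4 and 43.9 CPM in the floxed and 30.8, 26.1 and 40.2 CPM in the knockout libraries. The first 2 knockout libraries lay below the floxed range and the third inside it (log2 fold change -0.61, SE 0.28, edgeR adjusted p = 0.740). Message levels do not show how much NRF2 protein was present, since KEAP1 acts on the protein.

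Srxn1, a known NRF2 target, encodes sulfiredoxin, which restores overoxidised peroxiredoxins. Its level was 161, 131 and 149 CPM in floxed libraries 1, 2 and 3 and 41.1, 40.5 and 100.04 CPM in knockout libraries 1, 2 and 3. All 3 knockout libraries were below the lowest floxed library, the third least so, and the log2 fold change was -1.28 (SE 0.38, 95% interval -2.17 to -0.39, edgeR adjusted p = 0.578).

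The same order of the knockout libraries was seen in 5 further genes, grouped after their values were seen, for which knockout libraries 1 and 2 lay below the floxed range and library 3 did not. They were Gclm, Me1, Nqo1, Prdx6 and Txnrd1, 12.5% of the members, against 7.10% of all genes. Gclm, the modifier subunit of the enzyme that limits glutathione synthesis, measured 66.8, 76.7 and 67.1 CPM in the floxed and 39.7, 39.3 and 70.5 CPM in the knockout libraries. Me1, cytosolic malic enzyme and a source of NADPH, measured 75.6, 70.2 and 71.2 CPM against 33.1, 32.7 and 92.9 CPM. In both genes the floxed libraries were close together, knockout libraries 1 and 2 were close to each other well below them, and knockout library 3 was at or above the floxed level. Prdx6, a peroxiredoxin that uses glutathione and also reduces lipid peroxides, measured 282, 291 and 305 CPM against 164, 159 and 312 CPM. Txnrd1, the cytosolic thioredoxin reductase, measured 115, 91.1 and 104 CPM against 59.0, 75.3 and 127 CPM. None of the 5 passed, with log2 fold changes of -0.61 to -0.25 and edgeR adjusted p-values between 0.740 and 0.938. With each library left out in turn, the log2 fold change lay between -0.83 and -0.35 for Gclm, -0.80 and -0.32 for Nqo1 and -1.85 and -1.06 for Srxn1. The most negative value was that without knockout library 3 in each case. The least negative was that without knockout library 2 for Gclm and Srxn1 and without floxed library 2 for Nqo1.

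The promoters of Srxn1, Gclm, Me1 and Txnrd1 are shown because these genes are textbook targets of NRF2, were lowest in knockout libraries 1 and 2 and hold a match to its element. Nqo1, of the same group, has a promoter entry and holds no match in this window, and Prdx6 has no entry. Promoter sequences were those of RefSeq on GRCm38.p6, from 250 bases before to 50 bases after each transcript start, and 35 of the 40 members had an entry. The core of the antioxidant response element, TGACNNNGC, was searched on both strands. It was present for 12 of the 35 members (34.3%), against 14.0% of the genes in the whole table, and the full form TGACTCAGC for 3 members (8.57%), against 0.503% of genes. In the sequences, written 5′ to 3′ on the gene's strand, capitals mark each match. They are Srxn1 (chr2:152105274-152105573, plus strand), Gclm (chr3:122245307-122245606, plus strand), Me1 (chr9:86695865-86696164, minus strand) and the start of Txnrd1 that holds a match (chr10:82858956-82859255, plus strand).
Srxn1: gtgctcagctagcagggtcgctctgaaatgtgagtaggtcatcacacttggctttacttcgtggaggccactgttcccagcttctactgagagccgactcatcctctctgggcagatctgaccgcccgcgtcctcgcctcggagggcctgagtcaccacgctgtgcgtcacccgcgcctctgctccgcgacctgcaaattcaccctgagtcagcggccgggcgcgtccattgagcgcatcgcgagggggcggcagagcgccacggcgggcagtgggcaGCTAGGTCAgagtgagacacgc
Gclm: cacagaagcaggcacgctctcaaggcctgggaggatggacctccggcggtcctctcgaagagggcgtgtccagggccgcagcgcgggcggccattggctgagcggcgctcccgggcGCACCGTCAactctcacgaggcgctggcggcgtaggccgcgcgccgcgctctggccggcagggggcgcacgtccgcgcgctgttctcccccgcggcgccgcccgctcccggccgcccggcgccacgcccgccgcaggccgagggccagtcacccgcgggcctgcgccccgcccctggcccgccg
Me1: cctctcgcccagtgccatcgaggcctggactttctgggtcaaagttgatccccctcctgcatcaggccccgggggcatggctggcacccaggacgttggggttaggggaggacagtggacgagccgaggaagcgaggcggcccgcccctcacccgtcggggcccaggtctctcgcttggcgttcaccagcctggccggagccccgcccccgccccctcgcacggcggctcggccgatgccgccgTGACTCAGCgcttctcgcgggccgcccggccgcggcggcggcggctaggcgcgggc
Txnrd1: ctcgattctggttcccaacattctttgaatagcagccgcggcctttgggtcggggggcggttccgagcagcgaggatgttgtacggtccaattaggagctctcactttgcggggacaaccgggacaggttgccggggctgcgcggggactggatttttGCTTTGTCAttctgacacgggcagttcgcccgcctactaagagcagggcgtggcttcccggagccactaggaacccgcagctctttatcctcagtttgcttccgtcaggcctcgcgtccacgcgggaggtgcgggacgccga
The match in Me1 begins 6 bases before the transcript start and has the full form. Those in Gclm and Txnrd1 begin 134 and 92 bases before it, on the opposite strand, and that in Srxn1 begins at base 29 of the transcript, also on the opposite strand. Among members with a promoter entry, the median log2 fold change of the 12 with a match was -0.42, and of these 11 were negative and 1 lay below the floxed range in every knockout library. The median of the 23 without a match was -0.24, and of these 16 were negative and 4 lay below in every knockout library. This is a description of letters in a short window, and no binding was measured. Other spellings of the element were not searched, so TGAGTCAGC, in lower case in the Srxn1 promoter, is not among the matches.

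**Figure D2:**
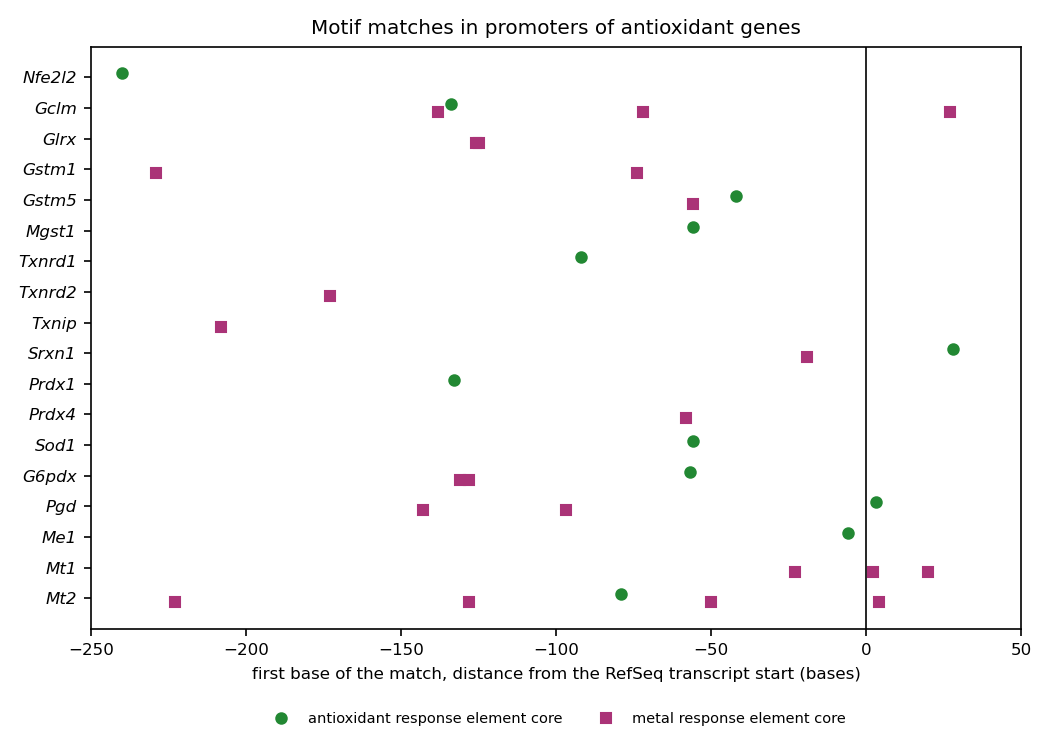
Position of the first base of each match to the antioxidant response element core and the metal response element core in the promoters of the members that hold either (x axis, bases from the RefSeq transcript start). Mt2 holds 4 metal response cores and 1 antioxidant response core, and Mt1 holds 3 metal response cores.

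Glutathione genes differed among themselves. Gss, glutathione synthetase, which adds glycine in the last step of glutathione synthesis, measured 47.2, 38.6 and 45.4 CPM in the floxed and 28.9, 16.8 and 23.9 CPM in the knockout libraries. The genotypes did not overlap, and its log2 fold change was -0.91 (SE 0.23, 95% interval -1.45 to -0.38, edgeR adjusted p = 0.529). Without knockout library 1 the log2 fold change was -1.12 and passed, with an edgeR adjusted p of 0.0374, and over all 17 alternatives it lay between -1.12 and -0.73 with adjusted p-values from 0.0374 to 1.00. Gss shares 76.1% of its span with Acss2 on the opposite strand, which held 263 to 475 counts a library, so its level is uncertain if reads were counted without strand.

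Gclc, the catalytic subunit that pairs with the product of Gclm, did not follow Gclm. It measured 34.4, 39.7 and 32.9 CPM against 39.2, 23.8 and 45.4 CPM, with knockout library 2 lowest and library 3 highest (log2 fold change 0.02, 95% interval -0.58 to 0.62). Gsr, which regenerates reduced glutathione from its disulfide, overlapped between the genotypes at 32.2 to 48.3 CPM in the floxed and 32.2 to 38.0 CPM in the knockout libraries.

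Glrx, glutaredoxin, which removes glutathione from proteins, was the member with the largest positive log2 fold change, 0.84 (SE 0.44, edgeR adjusted p = 0.788). It measured 38.6, 26.0 and 38.3 CPM in the floxed and 25.5, 92.2 and 65.9 CPM in the knockout libraries. Knockout libraries 2 and 3 were above every floxed library and library 1 below. Without library 1 Glrx passed, at a log2 fold change of 1.18 and an adjusted p of 0.0423 (0.0423 to 1.00 over the alternatives), and without knockout library 2 the log2 fold change was 0.41. Lymphocyte (T and NK) markers and those of cell division were high in the same 2 libraries, the latter (5 of 5 detected) at 240 and 246 CPM against 28.0 to 55.6 CPM in the floxed libraries and 36.2 CPM in knockout library 1, and their part in the result was not tested.

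Among the enzymes that use glutathione, 7 of 8 were negative in log2 fold change and the median was -0.48. Gsta4, the transferase that clears the lipid peroxidation product 4-hydroxynonenal, had, with Srxn1, the most negative log2 fold change of the 40 members. It measured 71.0, 100.3 and 104 CPM in floxed libraries 1, 2 and 3 and 42.5, 20.2 and 50.7 CPM in knockout libraries 1, 2 and 3, without overlap. The log2 fold change was -1.28 (SE 0.35, 95% interval -2.11 to -0.45, edgeR adjusted p = 0.570), and over the alternatives it lay between -1.55 and -0.98.

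The mu-class transferase Gstm1 varied far more between libraries than between genotypes. It measured 105, 244 and 157 CPM in the floxed and 255, 58.9 and 46.2 CPM in the knockout libraries, with knockout library 1 highest of all and the other two lowest. Gstm5, of the same class and gene cluster, measured 23.0, 31.4 and 27.2 CPM against 25.002, 12.3 and 16.0 CPM. Its log2 fold change was -0.62 (SE 0.29, edgeR adjusted p = 0.748). The mu-class genes resemble each other in sequence, as do Gstp1 and its close copies, so reads may be divided among them and their levels are uncertain.

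Mgst1 and Mgst3, membrane-bound relatives of the transferases, also had knockout libraries 2 and 3 below the floxed range and library 1 inside it. Mgst1 measured 63.3, 83.1 and 82.3 CPM in the floxed and 71.3, 42.0 and 51.7 CPM in the knockout libraries. Mgst3 measured 126, 362 and 219 CPM against 235, 97.5 and 74.9 CPM. Their log2 fold changes were -0.47 (SE 0.23) and -0.80 (SE 0.53), with edgeR adjusted p-values of 0.766 and 0.863. The floxed libraries of Mgst3 spread widely, with the first close to the knockout values, and its log2 fold change was -1.47 without knockout library 1 and -0.35 without floxed library 2.

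Gpx3, the secreted glutathione peroxidase, was among the most abundant members, at 1175, 1515 and 1642 CPM against 1927, 400.4 and 1029 CPM. Knockout library 1 lay above and libraries 2 and 3 below the floxed range. Gpx1, the cytosolic enzyme, differed in order, at 523, 385 and 603 CPM against 300.0, 461 and 446 CPM. Here knockout library 1 was lowest and floxed library 2 next. Gstp1 was the single member of this role with a positive log2 fold change, 0.17 (95% interval -0.42 to 0.77).

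The thioredoxin system other than Srxn1 showed no common direction beyond the spread. Txn1, cytosolic thioredoxin, measured 171, 130 and 159 CPM against 97.8, 209 and 209 CPM, so that knockout library 1 lay below and libraries 2 and 3 above the floxed range. Txn2 and Txnrd2, its mitochondrial thioredoxin and reductase counterparts, had log2 fold changes of -0.06 and -0.11, with 95% intervals of -0.50 to 0.37 and -0.79 to 0.56. Txnip, which binds and inhibits thioredoxin, measured 470.0, 959.5 and 842 CPM in the floxed and 1105, 422 and 284 CPM in the knockout libraries. It was highest in knockout library 1 and lowest in knockout libraries 2 and 3, with a log2 fold change of -0.33 (95% interval -1.60 to 0.94). The whole span of Txnip overlaps the noncoding gene Gm15441 on the opposite strand, which held 9 to 73 counts a library.

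Peroxiredoxins, which reduce hydrogen peroxide with a reactive cysteine, had 4 negative and 2 positive log2 fold changes, from -0.47 for Prdx6 to 0.07 for Prdx4. Prdx5, found in mitochondria and peroxisomes, was the steadiest, at 324 to 375 CPM in the floxed and 362 to 385 CPM in the knockout libraries. The mitochondrial Prdx3 measured 70.9, 103 and 89.1 CPM against 82.1, 61.1 and 79.3 CPM. Prdx1 and Prdx4, the latter a peroxiredoxin of the endoplasmic reticulum, were lowest in knockout library 1, at 177 and 24.6 CPM, against 274 to 409 and 30.7 to 43.8 CPM in the floxed libraries. Prdx2, abundant in red blood cells, measured 216, 264 and 268 CPM against 223, 203 and 209 CPM. Erythroid markers (6 of 6 detected, Slc4a1 and Hbb-bt at 0 in 2 floxed libraries) summed to 5.30 to 14.8 CPM in the floxed and 49.4, 348 and 407 CPM in the knockout libraries. Their part in the level of Prdx2 was not tested.

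Of the members, 9 had knockout library 1 below the floxed range and libraries 2 and 3 not (G6pdx, Glrx, Gpx1, Pgd, Prdx1, Prdx4, Tkt, Txn1 and Txn2), 22.5% against 18.2% of all genes. Macrophage and monocyte markers were lowest in the same library, at 1834 CPM, and next lowest in floxed library 2, at 2975 CPM. Their part in these values was not tested. Another 9 members had knockout libraries 2 and 3 below and library 1 not (Gpx3, Gstm1, Gstm5, Mgst1, Mgst3, Mt1, Prdx2, Sod1 and Txnip), 22.5% against 11% of all genes. Taken singly, knockout libraries 1, 2 and 3 lay below every floxed library for 20, 23 and 16 of the 40 members, against 33.3%, 30.6% and 33.3% of all genes.

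**Figure D3:**
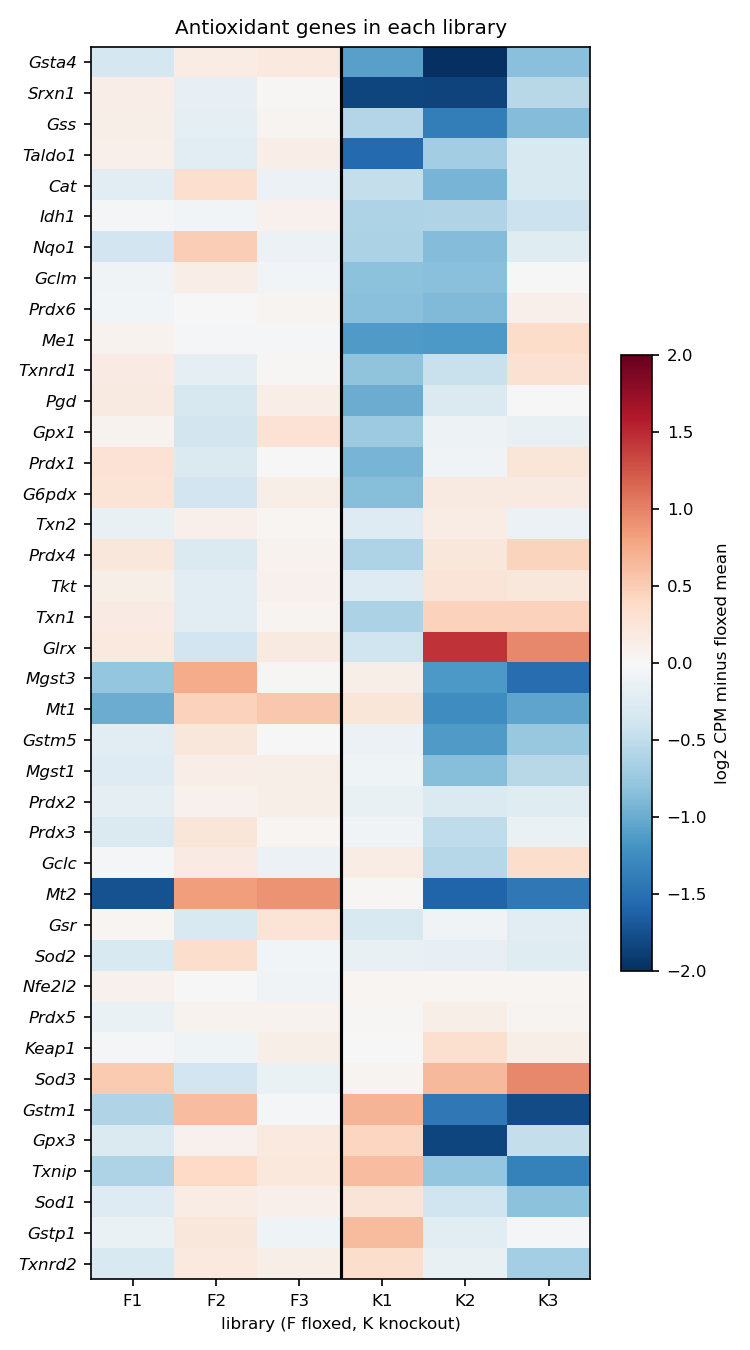
Log2 CPM minus the floxed mean for each of the 40 genes (rows) in each library (columns, F1 to F3 floxed and K1 to K3 knockout), with rows ordered first by where the knockout libraries fall against the floxed range and then by fold change. Gsta4, Srxn1, Gss, Taldo1, Cat and Idh1 at the top are lower in K1, K2 and K3, and the rows Gstm1, Gpx3, Txnip and Sod1 near the bottom are high in K1 and low in K2 and K3.

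Cat, catalase, which breaks down hydrogen peroxide in peroxisomes, measured 128, 189 and 137 CPM in the floxed and 108, 78.3 and 121 CPM in the knockout libraries, the last of which lay just under floxed library 1. The log2 fold change was -0.57 (SE 0.24, 95% interval -1.14 to 0.01, edgeR adjusted p = 0.719). On FPKM the genotypes overlapped, at 50.47 in knockout library 3 and 50.36 in floxed library 1. The cytosolic dismutase Sod1 measured 317, 418 and 407 CPM against 450, 286 and 214 CPM, and the mitochondrial Sod2 148, 234 and 175 CPM against 164, 164 and 154 CPM. Both overlapped between the genotypes, with log2 fold changes of -0.26 and -0.21. The extracellular dismutase Sod3 went the other way, at 81.6, 43.4 and 51.6 CPM against 58.8, 89.0 and 110 CPM (log2 fold change 0.55, SE 0.32, edgeR adjusted p = 0.825). Fibroblast markers (6 of 6 detected) summed to 9839, 4796 and 7656 CPM in the floxed and 3976, 5475 and 12036 CPM in the knockout libraries. Floxed library 1 and knockout library 3 were high for both, and knockout library 2 was high for Sod3 only. The part of fibroblasts in the level of Sod3 was not tested.

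NADPH supply held 2 of the 6 members that did not overlap. Idh1, cytosolic isocitrate dehydrogenase, was the tightest of all, at 52.5, 51.3 and 56.9 CPM in the floxed and 34.8, 35.4 and 39.7 CPM in the knockout libraries. Its log2 fold change was -0.55 (SE 0.14, 95% interval -0.89 to -0.21, edgeR adjusted p = 0.544). DESeq2 called it, at an adjusted p of 0.0285 (0.0285 to 1.00 over the alternatives), with log2 fold changes between -0.61 and -0.50 throughout. Taldo1, transaldolase of the pentose phosphate pathway, measured 328, 261 and 337 CPM in the floxed and 104, 188 and 248 CPM in the knockout libraries. The third knockout library lay close under the second floxed library, and the log2 fold change was -0.78 (SE 0.33, edgeR adjusted p = 0.715).

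The other pentose phosphate enzymes did not separate the genotypes. Pgd, which makes NADPH from 6-phosphogluconate, measured 186, 132 and 179 CPM in the floxed and 82.3, 134 and 165 CPM in the knockout libraries. G6pdx, the entry enzyme, measured 56.0, 35.8 and 50.4 CPM against 25.8, 52.7 and 53.0 CPM, and lies within the span of Ikbkg on the opposite strand. Tkt, transketolase, had a log2 fold change of 0.09 (95% interval -0.41 to 0.58). In Pgd, G6pdx and Tkt, knockout library 1 was the lowest of all 6 libraries.

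**Figure D4:**
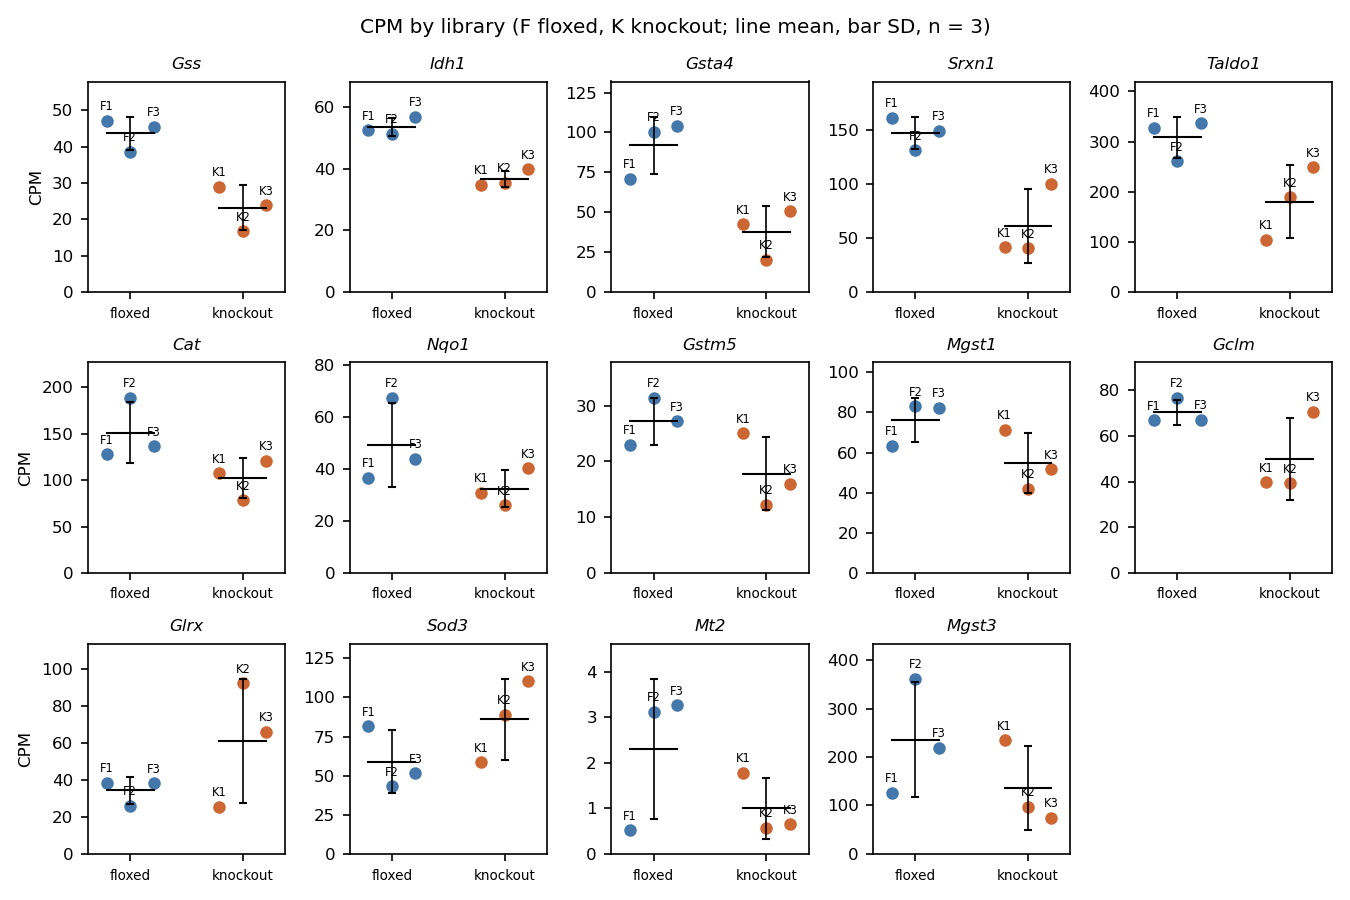
CPM in each library (points, F1 to F3 floxed and K1 to K3 knockout; lines mark means and bars SD, n = 3) for the 14 members with the smallest p or the largest fold change. Gss, Idh1, Gsta4, Srxn1, Taldo1 and Cat have all knockout points below all floxed points, and the other 8 overlap.

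The metallothioneins, small cysteine-rich proteins that bind zinc and copper and scavenge radicals, varied strongly within each genotype. Mt1 (chromosome 8, 94179082 to 94180327, plus strand, GRCm38) measured 501, 1363 and 1440.3 CPM in the floxed and 1179, 420.5 and 478 CPM in the knockout libraries. Floxed library 1 resembled knockout libraries 2 and 3, and knockout library 1 resembled floxed libraries 2 and 3. The log2 fold change was -0.67 (95% interval -1.95 to 0.61, edgeR adjusted p = 0.893). Mt2 lies next to it, at 94172664 to 94173568, at a much lower level, from 10 to 60 counts a library. It measured 0.519, 3.12 and 3.26 CPM in the floxed and 1.78, 0.576 and 0.649 CPM in the knockout libraries. As for Mt1, floxed libraries 2 and 3 and knockout library 1 were the highest. The lowest was floxed library 1 for Mt2 and knockout library 2 for Mt1. The log2 fold change of Mt2 was -1.21 (SE 0.77, edgeR adjusted p = 0.854). The noncoding gene Gm45774 covers 82.8% of Mt2 on the opposite strand and held 12 to 29 counts, so the level of Mt2 is uncertain, and whether reads shared by both were left uncounted is not stated in the labels.

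Metallothionein genes are known to respond to metals and to glucocorticoids. The 6 glucocorticoid response genes examined (Fkbp5, Tsc22d3, Per1, Zbtb16, Sgk1 and Pdk4) summed to 603, 1567 and 1529 CPM in floxed libraries 1, 2 and 3 and to 1563, 574 and 586 CPM in knockout libraries 1, 2 and 3. Their summed level was high in the same 3 libraries as Mt1 and low in the same 3. Pdk4, a kinase that restrains glucose oxidation in fasting, measured 67.0, 444 and 394 CPM in the floxed and 326, 37.9 and 36.7 CPM in the knockout libraries (log2 fold change -1.17, SE 1.02, edgeR adjusted p = 0.896). Tsc22d3, a classic glucocorticoid target, measured 144, 329 and 368 CPM against 326, 132 and 144 CPM. Of this list 0 passed, 5 of 6 were negative and the median was -0.28. Txnip was also high in those 3 libraries. The 5 metal response and zinc transport genes summed to 134, 181 and 156 CPM in the floxed and 200.5, 156 and 167 CPM in the knockout libraries, lowest in floxed library 1 and highest in knockout library 1. The most abundant of them, the zinc transporter Slc39a14, measured 60.9, 112 and 89.0 CPM against 128, 72.0 and 85.5 CPM. Its 3 highest were again F2, F3 and K1 (floxed libraries 2 and 3 and knockout library 1). The other genes of this list did not share that order. Slc30a1 was highest in knockout library 2, at 38.8 CPM, and Mtf1 and Mt3 in knockout library 3, at 18.6 and 7.14 CPM. Slc39a10 was lowest in floxed libraries 2 and 3, at 16.7 and 15.6 CPM. Of this list 0 passed and the median was 0.16, with Slc39a10 at 0.38 and Mt3 at 0.58. The median level of the cardiomyocyte markers (log2 CPM relative to the floxed mean) had the same 3 libraries highest, at -0.44, 0.33 and 0.06 in the floxed and 0.19, -0.24 and -1.12 in the knockout libraries. Idh2, Mgst3 and Gstm1 had the same 3 libraries highest as well. The part of glucocorticoids, metals or cell makeup in the levels of Mt1 and Mt2 was not tested.

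**Figure D5:**
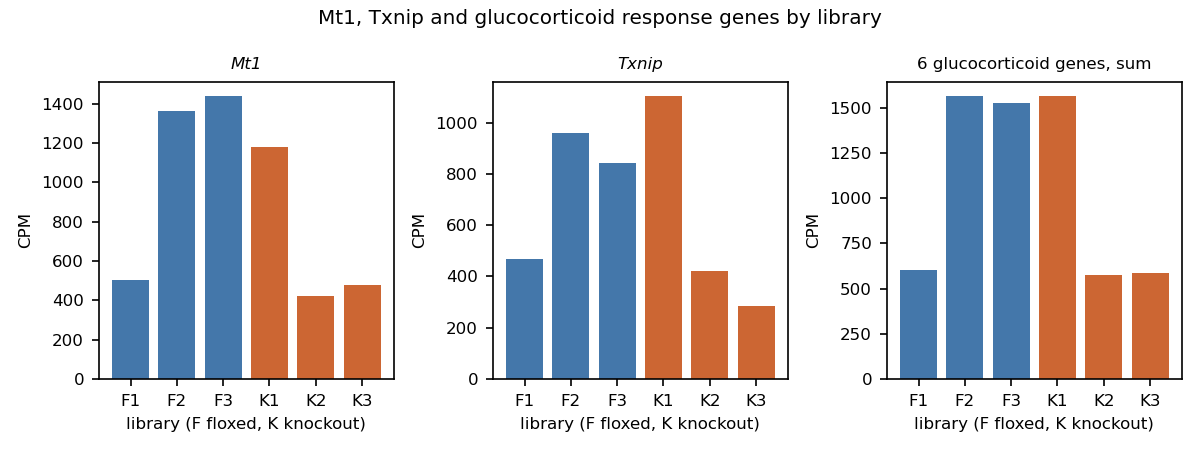
CPM of Mt1 and Txnip and the summed CPM of 6 glucocorticoid response genes (bars, one per library, F1 to F3 floxed and K1 to K3 knockout). In each panel F2, F3 and K1 are high and F1, K2 and K3 are low.

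The promoters of Mt1 (chr8:94178839-94179138, plus strand) and Mt2 (chr8:94172368-94172667, plus strand) are shown because the 2 neighbours were high in the same libraries. The core of the metal response element was searched as TGCGCNC and TGCACNC on both strands. Capitals mark each match and, in Mt2, also the match to the antioxidant response element.
Mt1: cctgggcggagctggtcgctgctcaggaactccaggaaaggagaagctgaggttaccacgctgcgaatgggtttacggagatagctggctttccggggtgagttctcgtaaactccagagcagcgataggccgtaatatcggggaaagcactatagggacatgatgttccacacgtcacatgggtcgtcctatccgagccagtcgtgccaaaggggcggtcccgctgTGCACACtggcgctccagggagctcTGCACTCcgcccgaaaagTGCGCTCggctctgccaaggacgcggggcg
Mt2: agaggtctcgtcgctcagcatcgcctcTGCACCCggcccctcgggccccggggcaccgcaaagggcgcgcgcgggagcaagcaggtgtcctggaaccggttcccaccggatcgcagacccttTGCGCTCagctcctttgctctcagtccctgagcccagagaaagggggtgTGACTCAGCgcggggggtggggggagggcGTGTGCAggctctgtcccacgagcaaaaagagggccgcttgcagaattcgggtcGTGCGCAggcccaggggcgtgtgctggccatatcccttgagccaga
Mt1 holds 3 metal response cores and Mt2 holds 4, whereas 1.97% of all promoters in the table hold at least 3 and 0.517% at least 4. The Mt2 promoter also holds TGACTCAGC, whose first base lies 79 bases before the transcript start.

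Levels between genes were compared on the deposited FPKM, which are per gene length. In the floxed libraries Mt1 was highest at 872 ± 401 FPKM (SD, n = 3), then Gpx3 at 791 ± 119.9, Gpx1 at 349 ± 83.3, Txnip at 239.5 ± 74.7 and Mgst3 at 211 ± 99.7 FPKM. The lowest were Glrx at 6.24 ± 1.47 and Mt2 at 3.85 ± 2.55 FPKM, the latter uncertain because Gm45774 overlaps it on the opposite strand. Neighbours in this order overlapped between floxed libraries in 34 of 39 cases. The 5 steps without overlap were those below Gpx3, Srxn1, Keap1, Gclm and Gclc. Nfe2l2 averaged 29.8 ± 2.41 FPKM and Keap1 14.5 ± 1.36 FPKM. Together the 40 members took 0.719% to 0.921% of the counts in the floxed and 0.537% to 0.744% in the knockout libraries.

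Related genes outside the 40 were examined as lists. Of 11 partners and regulators of NRF2, 0 passed, 8 had negative log2 fold changes and the median was -0.14. Sqstm1, an autophagy receptor that displaces KEAP1 from NRF2, measured 811, 1126 and 969 CPM in the floxed and 678, 424 and 626 CPM in the knockout libraries, without overlap (log2 fold change -0.75, edgeR adjusted p = 0.635). Nfe2l1, a relative of NRF2 that controls proteasome genes, averaged 352 ± 25.9 CPM against 259.9 ± 19.1 CPM (floxed against knockout, SD, n = 3), also without overlap (log2 fold change -0.44, edgeR adjusted p = 0.709). Of 14 further NRF2 targets, 0 passed, 11 were negative and the median was -0.17. Hmox1, heme oxygenase, measured 179.9, 145 and 187 CPM in the floxed and 54.4, 96.9 and 147 CPM in the knockout libraries (log2 fold change -0.78, edgeR adjusted p = 0.740), the third knockout library alone reaching the floxed range. Slc48a1, a heme transporter, averaged 119.8 ± 9.71 and 91.1 ± 11.5 CPM (edgeR adjusted p = 0.721).

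Among 25 other glutathione and thioredoxin genes, 0 passed, 18 were negative and the median was -0.17. Gsto1, an omega-class transferase, measured 157, 164 and 177 CPM in the floxed and 103, 74.9 and 125 CPM in the knockout libraries, without overlap (log2 fold change -0.72, edgeR adjusted p = 0.596). Mgst2 was low throughout, at 0.720 to 1.61 CPM in the floxed and 1.65, 6.39 and 4.44 CPM in the knockout libraries (log2 fold change 1.71, edgeR adjusted p = 0.614). Of 11 other NADPH supply genes, 0 passed and the median was -0.01, with Rpia at a log2 fold change of 0.62 and Me3 at -0.48. Of 5 regulators and relatives of Txnip, 0 passed and 4 were positive, with Mlx at 0.20 and Arrdc3 at -0.17.

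Nnt, which encodes the mitochondrial transhydrogenase that makes NADPH from NADH, was nearly undetected in all 6 libraries. It held 8, 21 and 13 counts in the floxed and 33, 7 and 12 counts in the knockout libraries, 0.110 ± 0.0557 and 0.137 ± 0.117 FPKM (SD, n = 3). Idh2, the other main source of mitochondrial NADPH, averaged 405 ± 219 and 268 ± 188 FPKM. The low level of Nnt was common to both genotypes. The labels used here do not name the strain.

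The counts of members that did not overlap depended on the libraries. Without knockout library 1 there were 19 such members, 15 lower and 4 higher, where 37.8% of all genes did not overlap. Without floxed library 1 there were 16, 14 lower and 2 higher, against 21.3% of all genes, and without knockout library 3 there were 11, all lower, against 25.5%. No permutation p is given for single genes, since the smallest that the exact test allows at this size is 0.1.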

How the data were processed

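RNA was extracted with TRIzol and libraries were made with a stranded mRNA kit, per the labels' protocols. Raw counts, in whole numbers, and FPKM values were deposited by gene, in 1 column per library. The submitters' processing notes list featureCounts 1.6.2 among the counting and alignment tools, with HISAT2 2.1.0 and StringTie 1.3.4d, and give mm10 as genome build; no role is recorded for any of them. Whether counting used strand is not stated. No column of other samples was present.

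Counts were fitted across all genes by edgeR (version 4.0.16, under R 4.3.3). Low genes were removed by filterByExpr (minimum count 10), libraries were scaled by TMM, and genes were tested by the robust quasi-likelihood F test with genotype as the only term and Benjamini-Hochberg adjustment over 16591 genes. The fitted biological coefficient of variation was 33.3%. Standard errors were derived from the F statistic. CPM use TMM-scaled library sizes. Log2 CPM used a prior count of 2. Positions are those of GENCODE release M21 by Ensembl identifier, except for overlaps between genes, which use the positions in the deposited table. The test was tried on simulated counts.

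The members and lists were chosen with earlier results of these data known. The rule for full statistics was the 12 members with the smallest p and the 6 with the largest absolute log2 fold change, 14 genes in all, beside Gsdmd. Of each other list, the members past the threshold were to be named or, with none, the 2 with the smallest p. The groups of members by library, the 6 promoters printed, and Nnt, Idh2, Hbb-bt, Slc4a1, Slc39a14, Slc30a1 and Mtf1 were chosen after their values were seen.

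Alternatives were DESeq2 1.42.0; voom and log2 FPKM (pseudocount 1 or 0.1, or only genes averaging 1 FPKM) in limma 3.58.1; and, in edgeR, RLE scaling, no low-count filter, a 1 CPM mean filter, non-robust estimation, a replicate block, library sizes without mitochondrial genes and Gsdmd, and each library left out in turn. Figures were drawn with matplotlib 3.10.9.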

Additional observations from a re-analysis of the deposited data

How the results depend on the processing

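Over the 17 alternatives, all 14 members given full statistics kept the sign of their log2 fold change. That of Nfe2l2, which is near 0, turned negative without floxed library 3, and lay between -0.018 and 0.078 with each library left out. With each library left out, log2 fold changes ranged from -1.08 to -0.52 for Taldo1, -0.71 to -0.38 for Cat, -0.96 to -0.41 for Gstm5, -0.72 to -0.31 for Mgst1, 0.33 to 0.85 for Sod3 and -1.91 to -0.89 for Mt2. The members' median stayed negative, from -0.37 to -0.22 with each library left out. The number of members called was 0 in edgeR, 1 in DESeq2 (Idh1), and 0 to 2 with each library left out, the 2 being Glrx and Gss without knockout library 1. Members that did not overlap numbered 6 with all libraries, where 5.98% of all genes lay below and 5.82% above in every knockout library. There were 19 without knockout library 1, against 37.8% of all genes. Without floxed library 1 there were 16, against 21.3%, and without knockout library 3 there were 11, against 25.5%. In the 3 FPKM settings Gss, Gsta4, Gstm5, Idh1 and Srxn1 did not overlap, and Cat and Taldo1 did. No share of all genes was computed for the FPKM settings or the other omissions, so their counts are not given. Over all genes, 2 were called with all libraries, 243 by DESeq2, 1 by limma-voom, 10 with no filter on low counts and 0 to 500 with each library left out, and the cause was not tested. The replicate numbers are not known to pair animals. Deviations of same-numbered libraries from their group means correlated at -0.57, -0.31 and 0.04 for replicates 1, 2 and 3. Floxed and knockout libraries of different number correlated from -0.51 (floxed 2 with knockout 3) to 0.60 (floxed 2 with knockout 1). With 3 libraries a group, these values cannot decide whether the numbers stand for a pairing. With the replicate number as a block edgeR called 0 genes and 0 members, with 509 genes at an unadjusted p under 0.05. With 3 libraries a group, the 95% interval of the log2 fold change was narrowest for Idh1, -0.89 to -0.21, and widest for Mt2, -3.03 to 0.61. Counts of Mt2, 10 to 60 a library, limit its precision.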
